A study of Mus musculus with 66 samples.

Results

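Internal exon poly(A) sites are places where an mRNA was cut and polyadenylated inside an exon that lies upstream of the gene's 3'-most exon. They were taken from a table of pA sites mapped by 3'READS, a method that sequences the 3' ends of polyadenylated RNA, as the sites whose listed type was neither 3'-most exon, nor intron, nor upstream antisense. This rule gave 967 sites in 779 genes, out of 59578 sites in all, of which 56283 lie in the sense direction of a gene (38550 in 3'-most exons and 16766 in introns). The cells were C2C12, a mouse myoblast line. Each culture received an siRNA at 50 nM and was harvested after 48 h. The siRNA was a non-targeting control in siCtrl, and in siPaf1, siCdc73 and siSki8 it was directed at the named subunit of the PAF complex (Paf1C), where Ski8 has the gene symbol Wdr61. The siCtrl, siPaf1 and siCdc73 groups had 2 libraries each, 1 in batch 1 and 1 in batch 2, and siSki8 had 1 library, in batch 2. Each group was a transfected culture of the same line, each target was lowered by RNA interference with its gene intact, and the labels do not say whether the batches were separate cultures, so p-values measure the spread between these libraries. RNA-seq counts of the same 7 conditions were used for the host genes.

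Cleavage and polyadenylation is guided by a hexamer upstream of the cut, AAUAAA or a variant of it, which is read by the cleavage and polyadenylation specificity factor. In a 3'-most exon the cut completes the mRNA, whereas in an upstream exon or intron it competes with splicing and with transcription of the rest of the gene, and a cut inside a coding exon leaves an mRNA without a stop codon in that exon unless the frame happens to hold one. Paf1C travels with RNA polymerase II (PolII) and is known for roles in elongation and in histone modification along gene bodies.

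The sequences below are shown because these coding-exon sites differed from siCtrl after siPaf1, siCdc73 or both, as described further on. Each is the 30 bases of mm9 that end at the pA site, read 5' to 3' on the strand of the gene, with the nearest poly(A) signal hexamer (AATAAA or ATTAAA, or for Dbf4 and Taf5 a variant) in capitals.
Slc30a4, chr2:122515166-122515195, minus strand: atgaAATAAAcggcgatgtcatgctcatca
Terf2, chr8:109618766-109618795, minus strand: tggagatgATTAAAacagagttcacactga
Col5a2, chr1:45559671-45559700, minus strand: ctgtgtctcAATAAAagcccaggaacaaga
Pofut2, chr10:76723518-76723547, plus strand: ccgagtctcAATAAAaacatccccgttata
Cdk1, chr10:68808832-68808861, minus strand: ctctctATTAAAagaacttcgacatccaaa
Tm4sf1, chr3:57093644-57093673, minus strand: ctcattcaagtAATAAAtggaatgcttgga
Utp18, chr11:93727746-93727775, minus strand: caaagccAATAAAagcaataatgaatctgg
Dbf4, chr5:8421290-8421319, minus strand: tccaAATATAagcccctttggggaaaaata
Taf5, chr19:47145665-47145694, plus strand: gtttataatcaacatgaaAATGAAgcaaaa

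The label of the class was checked against the GENCODE M1 annotation of the same genome build, and it held for most sites but not for the sites with most reads. Of the 967 sites, 780 (80.7%) lay in exons that are internal in every annotated transcript of the gene that covers the site as an exon, and 114 lay only in an annotated last exon. A further 59 lay in an exon that is internal in some transcripts and last in others, and 14 in neither. The 114 sites in annotated last exons held 86.1% of the PASS reads of the class, against 13.4% for the 780 sites in annotated internal exons. PASS reads are those that carry Ts at their start that do not match the genome, the mark of a poly(A) tail. The annotated last-exon sites had a median of 58 reads over the 7 libraries and 47 of them lay within 24 bases of an annotated transcript end. The internal sites had a median of 5 reads, and 16 lay within 24 bases of such an end. Sites in annotated internal exons and in annotated last exons are therefore given separately below.

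**Figure D1:**
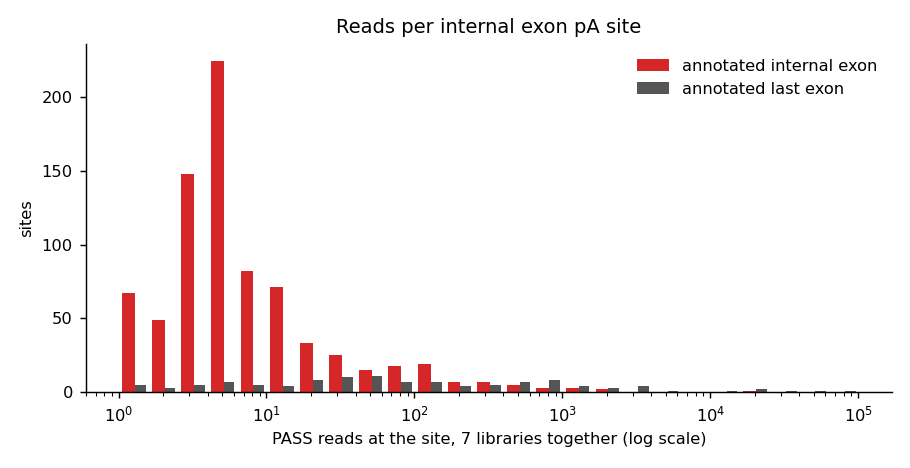
Number of sites (vertical axis) by PASS reads summed over the 7 libraries (horizontal axis, log scale), for the 780 sites in annotated internal exons and the 114 in annotated last exons. Most internal sites hold few reads, with a median of 5, and the last-exon sites spread to much higher counts, with a median of 58.

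Reads per site set what could be measured. Of the 967 sites, 504 had 5 or fewer reads in all libraries together, and 166 (17.2%) averaged 5 reads or more per library. Usage of a site, its reads against all other sense reads of its gene, could be tested for 141 sites in 110 genes, since 25 sites with enough reads lay in genes with too few other reads. Sites of a gene are not independent, and 667 genes held 1 site, 112 held 2 or more, and the largest number in a gene was 8. Of the 779 genes, 90 had no read at a 3'-most exon site, and 32 had no other sense read at all.

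The whole set of libraries held 5302728 to 14340927 PASS reads each, and the RNA-seq libraries 2796693 to 8160386 gene counts. Reads of Paf1 in 3'READS, summed over its sense sites, were 17.6 and 18.2 CPM (the reads as a proportion of all sense reads, on the counts-per-million scale) in siCtrl and 2.95 and 3.21 in siPaf1. In siCdc73 Paf1 was higher than in siCtrl, at 35.7 and 35.3 CPM. Cdc73 was at 5.83 and 10.9 CPM in siCtrl and at 0.567 and 3.14 in siCdc73, and Wdr61 at 6.51 and 22.4 in siCtrl and at 1.45 in siSki8. Of 7 myoblast markers 5 were above 1 CPM in every library, with desmin (Des) at 516 to 1840 CPM, while Myod1 and Pax7 did not exceed 0.598 and 0.629 CPM in any library. The 6 markers of differentiated myotubes summed to 62.8 to 504 CPM and the 5 of fibroblasts to 1820 to 2930 CPM, nearly all of it Col3a1, with Thy1 at 0. Of 4 markers each of endothelial, haematopoietic, epithelial and neuronal cells, at most 1 was above 1 CPM in every library. The first 3 of these lists summed to 31.0 CPM or less in any library, with Spi1 and Epcam at 0, and the neuronal list to 74.3 to 654 CPM, nearly all of it Tubb3. The siPaf1 library of batch 2 stood apart, with 5 sites of at least 30 reads that were over 20-fold above every other library, in Oaz3, Cst8, 1700031M16Rik, Fbn2 and Psma8, and no other library had such a site. None of these 5 was among the sites called below.

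The 8 sites with the highest level, which held 78.9% of all reads of the class, were in Iqgap1, Telo2, Atp11a, Tspan15, Npdc1, Nup214, Pofut2 and Strn3. Of these only Pofut2 lay in an annotated internal exon. The highest, in Iqgap1, which encodes a scaffold protein of the actin cytoskeleton, was at 1106 and 828 CPM in siCtrl, 1608 and 1109 in siPaf1, 1153 and 1095 in siCdc73 and 1231 in siSki8. No other sense read was listed for Iqgap1 in any library, and the same held for Telo2, Atp11a, Tspan15, Npdc1 and Nup214, so these 6 sites made up 100% of their genes and gave no usage to test. Their levels are thus the level of the whole gene at its listed 3' ends. Tspan15, a tetraspanin, was highest in siSki8, at 844 CPM against 227 and 429 CPM in siCtrl, and its RNA-seq counts were also higher there (log2 change 1.53, SE 0.30, adjusted p = 0.00219 in the edgeR quasi-likelihood test with batch as a block, and 0.781 without it, 1 siSki8 library). Strn3, a striatin that scaffolds a phosphatase, took 81.0% and 70.0% of its gene's reads at the site in siCtrl, 81.5% and 82.6% in siPaf1, 76.0% and 67.7% in siCdc73 and 54.4% in siSki8, and none of these differences passed a test.

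Among sites with a mean of at least 20 reads whose gene had at least 20 other reads, the highest shares in siCtrl were again mostly in annotated last exons. These were Gcap14 (97.3% and 97.5% of the gene's reads), Smg6 (97.3% and 100%), Erlec1 (72.4% and 72.9%), Sec24a (74.7% and 86.8%), Baalc (100% and 76.0%), Ppp2r5a (86.3% and 63.6%), Strn3 and Pofut2. Pofut2, an O-fucosyltransferase, was again the site in an internal exon, coding exon 2 of 9, 22 bases before the end of the exon. Its site took 74.9% and 76.5% of the reads of the gene in siCtrl. Most 3' ends listed for Pofut2 in siCtrl were thus at this exon.

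Within the exons, sites gathered at the last base, where the exon is joined to the next by splicing. For 839 sites with an annotated internal exon the distance from the site to the last base of the exon was measured, and 116 sites (13.8%) lay exactly on that last base and 37 within 1 or 2 bases of it. The first 6 bases of the next exon, which follow directly in spliced RNA but not in the genome, held a mean of 3.34 A (SD 1.84, n = 116 sites) for sites at the last base and 1.53 (SD 1.14, n = 723) for all other sites. At least 5 of these 6 bases were A for 40 of the 116 sites (34.5%), and for 4 of the 723 (0.553%). The next 6 sequences are shown because they belong to the boundary sites with most reads, and give the last 16 bases of the exon in lower case, whose mm9 position is given, and the first 10 bases of the next exon in capitals.
4921524J17Rik, chr8:87936012-87936027, minus strand: cacgaggaagagagagAAAAACAGGA
Smap1, chr1:23883213-23883228, minus strand: aatagctatcacaaatAAAGAAAAGG
Psip1, chr4:83110829-83110844, minus strand: tcaagagggtgaaaagAAGAGAAAGG
Wasl, chr6:24583837-24583852, minus strand: cgacaaaggaaatctgAAAAAAGACG
Zfp91, chr19:12850902-12850917, minus strand: ggttacccaaaaggagAAAAAAGCCT
4922501C03Rik, chr9:87111903-87111918, minus strand: attacgggcggcacagAAAGAAAAAA
These sites held 1869, 1144, 441, 349, 162 and 119 reads over the 7 libraries, in the order printed, and the first 3 ranged from 15 to 705, from 24 to 342 and from 39 to 91 reads per library. Only 2.59% of the 116 boundary sites had AATAAA or ATTAAA within 40 bases upstream, against 31.2% of the 667 other sites in annotated internal exons. PASS reads are defined by bases that do not match the genome at the site, and A bases of the next exon in a spliced RNA need not match the genome there either. The part of such reads in the counts of the boundary sites was not tested. The boundary sites held 433 to 1537 reads per library, and results on internal exons are given with and without them.

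**Figure D2:**
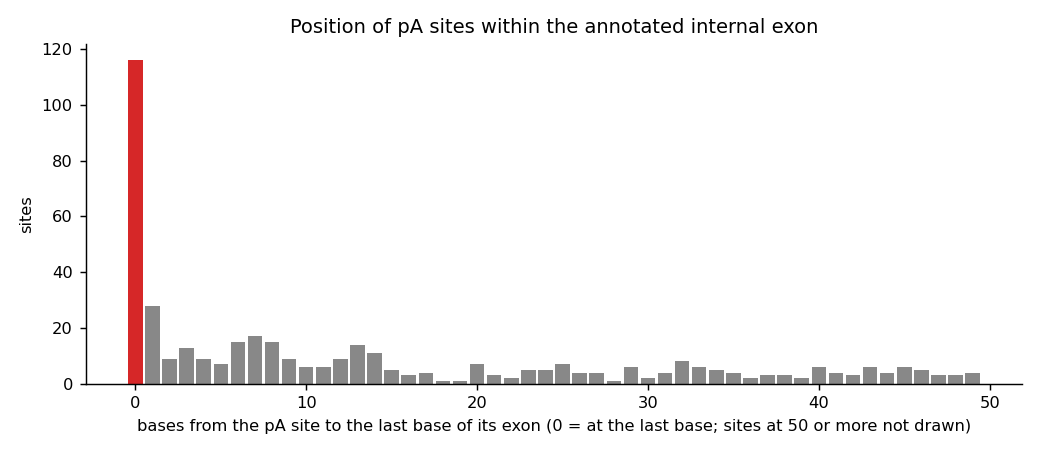
Number of sites (vertical axis) by distance in bases from the pA site to the last base of its annotated internal exon (horizontal axis), with sites exactly on the last base in red. The first bar holds 116 of 839 sites and is the tallest. Sites at 50 bases or more are not drawn.

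In the 780 sites of annotated internal exons, 653 lay in coding sequence, 101 in 5' UTRs, 6 in 3' UTRs and 20 in transcripts without coding sequence. The exon was the first of its transcript for 140 sites, 1 of exons 2 to 4 for 225 and a later one for 415. Its median length was 179 bases, and the median distance from the site to the exon's end was 45 bases. AATAAA or ATTAAA, searched on the strand of the gene in the 40 bases before the site, was found for 26.9% of these 780 sites, against 58.6% of 3'-most exon sites, 60.8% of intronic sites and 58.8% of all sense sites. The share was higher at sites with more reads. Among the 89 internal sites with a mean of at least 5 reads it was 62.9%, against 71.1% of 3'-most and 74.4% of intronic sites with as many reads. The 691 internal sites with fewer reads held a hexamer in 22.3%. The 40 bases upstream of internal exon sites had a mean GC content of 46.8% (SD 12.9), against 32.2% (SD 10.5) at 3'-most exon sites.

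The share of all sense PASS reads at sites in annotated internal exons was higher in every siPaf1 and siCdc73 library than in every other library. It was 0.0358% and 0.0365% in siCtrl, 0.0635% and 0.0787% in siPaf1, 0.0895% and 0.0852% in siCdc73 and 0.0319% in siSki8. The means were 0.0711% ± 0.0108 (SD, n = 2) in siPaf1 and 0.0873% ± 0.00304 (SD, n = 2) in siCdc73, against 0.0362% ± 0.000524 (SD, n = 2) in siCtrl, which is 1.97-fold and 2.41-fold. The groups did not overlap, and within batches the differences were 0.0277 and 0.0422 percentage points for siPaf1 and 0.0537 and 0.0486 for siCdc73. The 2-sided exact permutation test gave p = 0.333 for each, which is the smallest value that 2 libraries against 2 allow. The Pofut2 site held much of this signal, and without it the shares were 1.6-fold and 1.9-fold those of siCtrl. Without the boundary sites they were 2.05-fold and 2.59-fold. A higher share was not particular to internal exons. Intronic sites held 2.04% and 1.70% of sense reads in siCtrl and 1.93% in siSki8. They held 2.80% and 2.59% in siPaf1 and 2.53% and 2.40% in siCdc73. For sites in annotated last exons the share was 0.390% and 0.378% in siCtrl, 0.420% and 0.390% in siPaf1, 0.466% and 0.377% in siCdc73 and 0.422% in siSki8, so that siCdc73 overlapped siCtrl (exact permutation p = 0.333 for siPaf1 and 1.0 for siCdc73). Over all 967 sites together the share was 0.422% ± 0.00800 (SD, n = 2) in siCtrl, 0.479% ± 0.0102 (SD, n = 2) in siPaf1, 0.512% ± 0.0666 (SD, n = 2) in siCdc73 and 0.455% in the siSki8 library. The exact permutation test again gave p = 0.333 for siPaf1 and for siCdc73, and the batches differed for siCdc73, with 0.131 percentage points in batch 1 and 0.0483 in batch 2, against 0.0583 and 0.0552 for siPaf1.

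**Figure D3:**
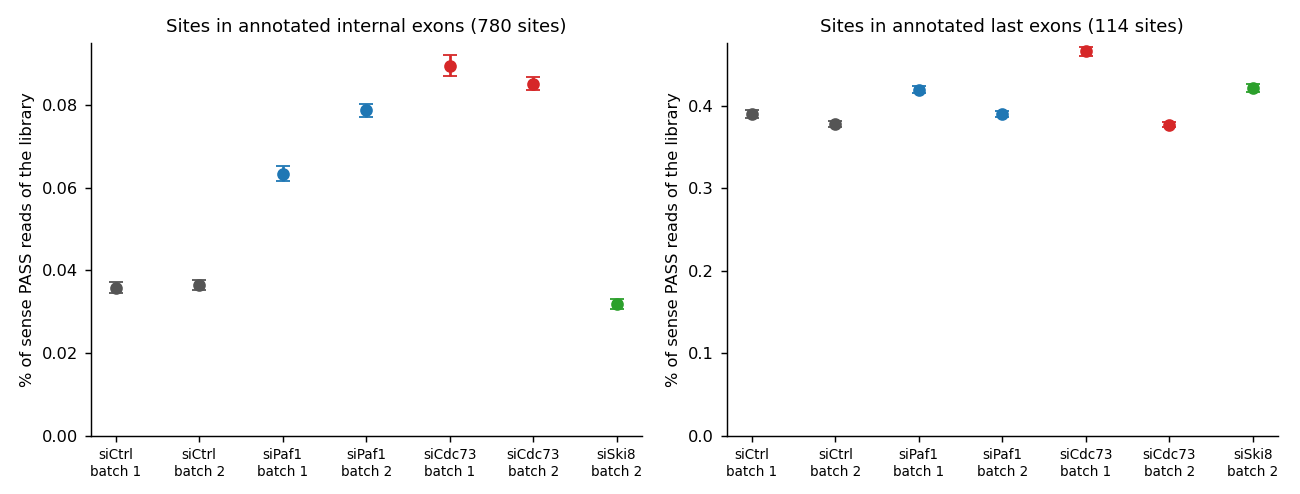
Percent of the sense PASS reads of each library (vertical axis, from 0) at sites in annotated internal exons (left) and annotated last exons (right), with Wilson 95% intervals that cover counting error only. On the left the siPaf1 and siCdc73 libraries sit between 0.0635% and 0.0895%, above siCtrl and siSki8 at 0.0319% to 0.0365%, and on the right the libraries lie between 0.377% and 0.466% with no such separation.

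The usage of each tested site was then set against siCtrl with the quasi-likelihood method of edgeR, and p-values were adjusted by Benjamini-Hochberg across the 19277 sense sites tested. Without a term for the batch no site of any class was called. At an unadjusted p under 0.05, 26 internal exon sites were higher and 6 lower in siPaf1, where 5.08% of all sense sites were higher and 3.55% lower. The counts were 19 and 5 in siCdc73 (5.1% and 3.45% of all), and 1 and 1 in siSki8 (0.804% and 0.913% of all). With the batch as a block, 20 of the 141 sites rose and 5 fell after siPaf1, where 4.12% of all sense sites rose and 2.55% fell (6.67% either way). In siCdc73 18 rose and 3 fell, where 3.72% of all rose and 2.5% fell (6.22% either way). The blocked fit called 0 sites in siSki8, where 0.00519% of all rose and as many fell (0.0104% either way). At an unadjusted p under 0.05 that fit put 10 siSki8 sites higher and 3 lower (3.04% and 2.94% of all), and DESeq2 also called 0. Without siCtrl replicate 2, 8 of the 25 siPaf1 calls and 9 of the 21 siCdc73 calls remained, and every called site kept its direction when any 1 siCtrl or knockdown library of its comparison was left out. The risen sites were 14.2% of the tested members for siPaf1 and 12.8% for siCdc73, next to 15% and 16.4% of the 2888 intronic sites tested and 2.1% and 1.38% of the 16248 in 3'-most exons.

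The called sites lay almost entirely in annotated internal exons. There 19 of 85 sites rose and 4 fell after siPaf1, and 17 rose and 1 fell after siCdc73. Of the 48 tested sites in annotated last exons 0 rose or fell after siPaf1, with 3 higher and 3 lower at an unadjusted p under 0.05 (11.0% and 8.94% of all sense sites), and 1 fell after siCdc73. The other calls, 1 up and 1 down in each knockdown, were in exons that are internal in some transcripts and last in others (Abcc5 and Mkks). The median log2 change of usage in the blocked fit was 1.08 for siPaf1 and 1.12 for siCdc73 over the 85 internal sites and -0.13 and -0.31 over the 48 last-exon sites, against 0.01 and -0.02 over all sense sites tested. Intronic sites were raised as well, with medians of 0.70 and 0.84 over 2888 sites. Of the 141 tested sites, 49 were in genes with a mean under 5 reads at 3'-most exon sites. Some last-exon sites served as each other's comparison and mirrored each other, as in Deb1 (0.32 and -0.32 after siPaf1) and Pid1 (-0.43 and 0.43). Such pairs pull the last-exon median toward the middle, so its distance from the internal-exon median is in part a product of the ratio. Over all 141 sites the medians were 0.46 and 0.54, and leaving out 1 library moved them to between 0.00 and 0.58 for siPaf1 and between 0.33 and 0.64 for siCdc73. These medians and counts are a description of the sites that passed the filter. The filter took the mean over all 7 libraries, so a site with a mean under 5 reads in siCtrl could pass only through the other groups. Among such sites 8 had no siCtrl read at all (Cst8, Dbf4, Dmxl1, Fam71d, Nek2, Pop1, Srrm2 and Utp18), and of these 5 rose after siPaf1 and 4 after siCdc73. Adjusted p-values of sites with a siCtrl mean under 5 carry the same selection. Over the 77 internal sites with a siCtrl read the medians were 0.92 and 0.85, with 14 and 13 risen. Over the 56 with a mean of at least 5 reads in siCtrl, a filter that favours sites high in siCtrl, they were 0.06 and 0.54, with 7 risen and 4 fallen after siPaf1 and 6 and 1 after siCdc73. The share of reads given above used all 780 sites and not this filter, but the sites were those listed over all 7 libraries. Of the 780, 190 and 215 had a read in the siCtrl libraries and 230 in siSki8. In siPaf1 295 and 312 had a read, and in siCdc73 312 and 348. Whether the listing itself favoured some groups was not tested. Single-library ratios within batches gave medians of 0.64 and 1.24 for siPaf1 and 1.33 and 1.19 for siCdc73 over the internal sites. The siCtrl library of batch 2 was lower than that of batch 1 by a median of -0.53 at these sites. For siSki8 the median over the 85 internal sites was 0.48 in the blocked fit and 0.15 without the block, and 46 of the 85 were above 0 in the blocked fit. Over all 141 sites the siSki8 median was 0.48 in the blocked fit and 0.13 without the block. The blocked median over all 141 sites, as fitted, thus did not set siPaf1 or siCdc73 apart from siSki8. That siSki8 value depends on sites without a read in a group. With such sites set to their bound, the blocked medians were 0.43 for siPaf1, 0.42 for siCdc73 and 0.13 for siSki8. Without the block they were 0.37, 0.55 and 0.13.

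The position in the gene and the hexamer are described for the 85 tested internal sites without a test, under the same filter. Of 10 sites in a first exon 4 rose after siPaf1 and 4 after siCdc73, of 37 in exons 2 to 4 10 and 9 rose, and of 38 in later exons 5 and 4. The medians were 1.86 and 1.69 in the first exon, 1.36 and 1.69 in exons 2 to 4 and 0.48 and 0.75 in later exons. Of 52 sites with AATAAA or ATTAAA upstream 12 rose after siPaf1 and 11 after siCdc73, and of the 33 without, 7 and 6. Of the 14 tested boundary sites 0 rose and 1 fell after siPaf1 (1 higher and 2 lower at an unadjusted p under 0.05), and 1 rose and 0 fell after siCdc73. Without the boundary sites the medians over 72 internal sites were 1.32 and 1.37.

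**Figure D4:**
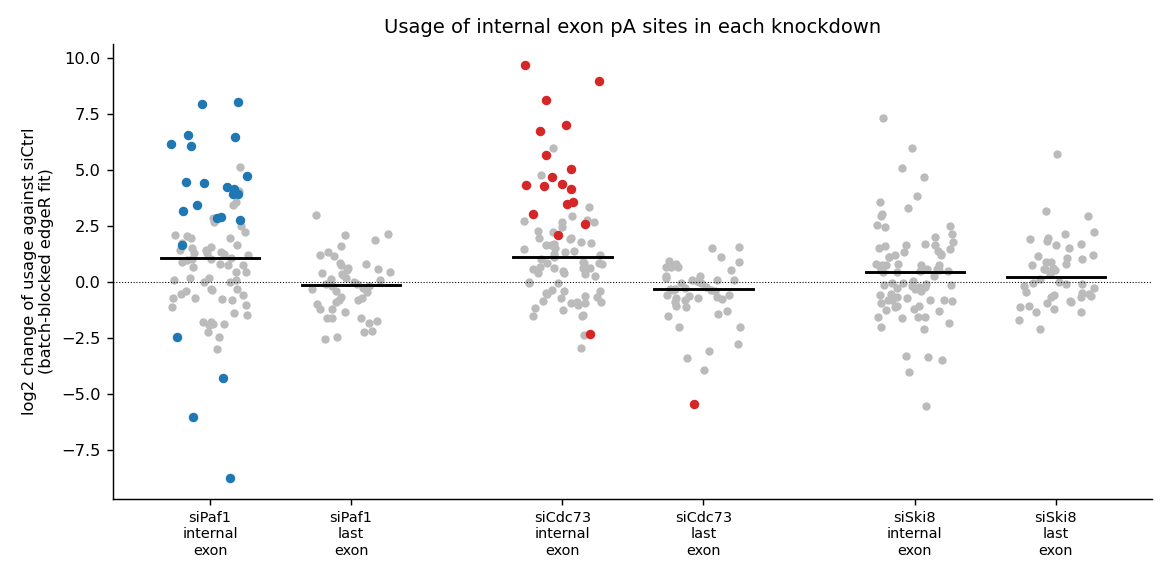
Log2 change of site usage against siCtrl in the batch-blocked edgeR fit (vertical axis) for tested sites in annotated internal exons (85) and annotated last exons (48), by knockdown. Each point is a site, coloured points have an adjusted p under 0.05, and bars are medians, which lie at 1.08 and 1.12 for internal exons after siPaf1 and siCdc73. Sites entered on their mean over all libraries, and fitted values of sites with no read in a group depend on the prior count.

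The site with the smallest adjusted p in both comparisons was in exon 3 of 7 of Slc30a4, which encodes a zinc transporter. It took 0 of 642 and 2 of 2019 reads of the gene in siCtrl, 37 of 487 and 70 of 1391 in siPaf1, 288 of 581 and 825 of 2232 in siCdc73, and 3 of 1482 in siSki8. Those are 7.60% and 5.03% in siPaf1 and 49.6% and 37.0% in siCdc73, while neither siCtrl nor siSki8 exceeded 0.202%. With libraries pooled, the share was 75.8-fold higher in siPaf1 (95% counting interval 20.5 to 634) and 526-fold higher in siCdc73 (145 to 4350). The blocked edgeR fit gave adjusted p = 3.22e-05 and 2.15e-08. The site had a siCtrl mean under 5 reads and passed the read filter only through the other groups, so these values are descriptive. The other reads of the gene ran from 293 to 2017, with the lowest value in siCdc73, while the site's own reads went from at most 2 in siCtrl to 825. In RNA-seq Slc30a4 fell after siPaf1 (log2 change -0.69, SE 0.23, adjusted p = 0.0204 in the blocked edgeR test) and was at -0.48 after siCdc73 (SE 0.23, adjusted p = 0.0891).

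Rbbp6, which encodes a RING finger protein of the cleavage and polyadenylation machinery, had its site in the 5' UTR part of exon 1 of 18, at chr7:130114435 on the plus strand. The site took 6.98% and 6.02% of the gene's reads in siCtrl, 63.5% and 60% in siPaf1, 78.2% and 39.3% in siCdc73 and 4.68% in siSki8. In reads it went from 6 and 16 in siCtrl to 181 and 372 in siPaf1 and 147 and 347 in siCdc73, with 21 in siSki8. The log2 change was 4.46 (SE 0.70, adjusted p = 0.000415, blocked edgeR) after siPaf1 and 4.30 (SE 0.71, adjusted p = 0.000476) after siCdc73. All 4 knockdown libraries were far above all siCtrl and siSki8 values. RNA-seq counts of the Rbbp6 coding region were at -0.07 (SE 0.24) and 0.23 (SE 0.23) on the log2 scale, with adjusted p = 0.841 and 0.462 in the blocked edgeR test.

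Terf2, a telomere-binding protein of shelterin, had its site in coding exon 3 of 11. The site took 5.88% and 1.53% of the reads in siCtrl, 48.4% and 36.6% in siPaf1, 52.6% and 52.2% in siCdc73 and 5.95% in siSki8. The log2 change was 4.45 (SE 0.78) after siPaf1 and 5.05 (SE 0.79) after siCdc73, with adjusted p = 0.00113 and 0.000314 in the blocked edgeR fit. Col5a2, an alpha chain of type V collagen, had its site in exon 1 of 54, 5 bases before the exon's end. It took 4 of 138 and 0 of 374 reads in siCtrl, 42 of 227 and 42 of 539 in siPaf1, 79 of 175 and 100 of 483 in siCdc73 and 1 of 265 in siSki8. The siCtrl libraries were again below each siPaf1 and siCdc73 library, with log2 changes of 3.96 (SE 0.89, adjusted p = 0.00813) and 5.70 (SE 0.86, adjusted p = 0.000211) in the blocked edgeR fit. Dbf4, the activating subunit of the Cdc7 kinase, had no read at its exon 2 site among 148 siCtrl reads of the gene, which allows a share of up to 2.03%. The site held 9 of 32 and 33 of 104 reads in siPaf1 and 14 of 25 and 61 of 148 in siCdc73, at least 15.2-fold and 21.4-fold higher with libraries pooled (adjusted p = 0.00362 and 0.000678, blocked edgeR), and 7 of 181 in siSki8. It passed the read filter only through the groups other than siCtrl, as did the sites of Nek2, Dmxl1 and Utp18 below. The adjusted p-values of these 4 sites are therefore descriptive. The same holds for every other called site with a siCtrl mean under 5 reads. These include Slc30a4, Terf2, Col5a2, Gpatch4, Golga1, Rmnd5a, Smad7, Zfp513, Aldh9a1, Pop1 and Srrm2. The sense reads of Dbf4 outside the site were few, and its RNA-seq counts fell after siPaf1 (log2 change -1.0, SE 0.23, adjusted p = 0.0014) and siCdc73 (-1.2, SE 0.24, adjusted p = 0.000169) and rose after siSki8 (1.37, SE 0.29, adjusted p = 0.00399) in the blocked edgeR test.

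The Pofut2 site, the only 1 of these in the group of highest level, changed less in fold. It held 700 and 1111 reads in siCtrl, 2024 and 4536 in siPaf1, 1844 and 5986 in siCdc73 and 545 in siSki8, while the other sense reads of the gene ran from 159 to 401. Its level was 94.9 and 114 CPM in siCtrl, 259 and 339 in siPaf1, 349 and 418 in siCdc73 and 65.8 in siSki8. As a share of the gene it rose from 74.9% and 76.5% to 89.7% and 91.9% after siPaf1 and to 92.1% and 93.9% after siCdc73, and was 68.0% in siSki8. The log2 changes of usage were 1.67 (SE 0.42, adjusted p = 0.0174) and 2.10 (SE 0.42, adjusted p = 0.00341) in the blocked edgeR fit. For siSki8 the log2 change was -0.70 (SE 0.54). The siPaf1 and siCdc73 calls were each lost in some of the fits that left out a siCtrl or knockdown library.

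**Figure D5:**
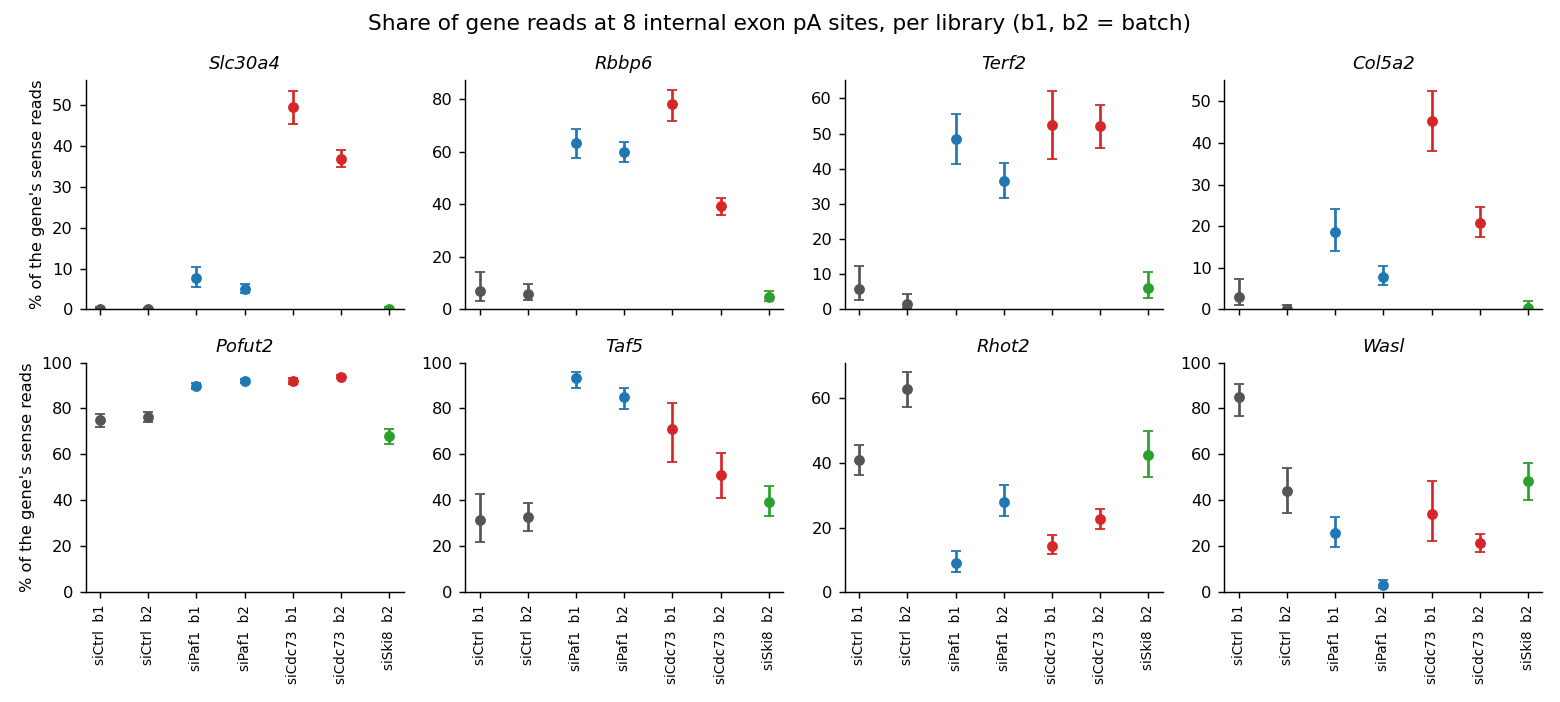
Percent of the gene's sense reads at the pA site (vertical axis) in each library (horizontal axis, b1 and b2 are batches) for 8 internal exon sites, with Wilson 95% intervals that cover counting error only. In Slc30a4, Rbbp6, Terf2, Col5a2, Pofut2 and Taf5 the siPaf1 and siCdc73 points lie above siCtrl, and in Rhot2 and Wasl below.

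Further sites rose after siPaf1. Taf5, a subunit of the general transcription factor TFIID, took 31.5% and 32.6% of its reads at its exon 2 site in siCtrl, 93.2% and 85% in siPaf1, 71.1% and 51.0% in siCdc73 and 39.4% in siSki8. The log2 change was 4.16 (SE 0.74, adjusted p = 0.00129, blocked edgeR) after siPaf1, and 1.69 (SE 0.74, adjusted p = 0.213) after siCdc73. The rest of the gene's reads were 50 and 151 in siCtrl and 14 and 34 in siPaf1, so that the site's reads and the other reads moved in opposite directions. Cdk1, the mitotic cyclin-dependent kinase, differed in this respect. Its site in coding exon 4 held 8 and 14 reads in siCtrl, 20 and 23 in siPaf1, 8 and 13 in siCdc73 and 30 in siSki8, whereas the other reads of Cdk1 were 896 and 3705 in siCtrl, 236 and 475 in siPaf1, 123 and 641 in siCdc73 and 2537 in siSki8. Its usage was called (log2 3.46, SE 0.58, adjusted p = 0.000745 after siPaf1 and 2.61, SE 0.64, adjusted p = 0.0146 after siCdc73, blocked edgeR) with few reads at the site and far fewer reads at the other sites than in siCtrl. The site's own level was 1.09 and 1.43 CPM in siCtrl, 2.56 and 1.72 in siPaf1 and 1.51 and 0.908 in siCdc73. The siCdc73 call was lost whichever siCtrl or siCdc73 library was left out. In bulk samples fewer cells that express a gene and less RNA per cell cannot be told apart. Nek2, a mitotic kinase of the centrosome named after its values were seen, had 0 reads at its site among 319 in siCtrl, 13 of 64 and 11 of 68 in siPaf1, 6 of 37 and 0 of 88 in siCdc73 and 5 of 188 in siSki8, and was at least 19.3-fold higher in siPaf1 (adjusted p = 0.00621, blocked edgeR). RNA-seq counts of Nek2 fell in both knockdowns, with log2 changes of -2.13 (SE 0.28, adjusted p = 7.96e-07) and -1.79 (SE 0.27, adjusted p = 5.95e-06) in the blocked edgeR test.

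Runx1, Abcc5, Tm4sf1, Gpatch4, Rmnd5a, Golga1, Nbeal1, Pop1, Smad7, Srrm2, Aldh9a1, Elk3 and Surf2 were chosen after their values were seen, from the called sites. Runx1, a transcription factor, had its site in the 5' UTR of exon 1. It took 6.57% and 0.998% of the reads in siCtrl, 19.3% and 12.9% in siPaf1, 39.9% and 14.5% in siCdc73 and 3.75% in siSki8, with log2 changes of 2.78 (SE 0.60) and 3.59 (SE 0.60) and adjusted p = 0.00621 and 0.000575 (blocked edgeR). Tm4sf1, a membrane protein related to tetraspanins, had its site in exon 6 of 7 at 0.343% and 0.306% in siCtrl, 2.74% and 1.96% in siPaf1, 0.679% and 1.32% in siCdc73 and 0.734% in siSki8, and was called after siPaf1 (log2 2.87, SE 0.54, adjusted p = 0.00187). Gpatch4, a G-patch protein, had 4 of 68 and 0 of 59 reads at its site in the 5' UTR of exon 2 in siCtrl, 41 of 86 and 52 of 127 in siPaf1, 15 of 66 and 10 of 66 in siCdc73 and 7 of 125 in siSki8, and was called after siPaf1 (log2 4.75, SE 1.06, adjusted p = 0.00759). Abcc5 and Rmnd5a rose in both comparisons (adjusted p = 0.00214 and 0.0354 after siPaf1, and 0.0171 and 0.0252 after siCdc73, blocked edgeR). The Rmnd5a calls, and the siCdc73 call of Abcc5, were lost whichever siCtrl or knockdown library was left out. The remaining sites that rose after siPaf1 were in Dmxl1, Golga1, Nbeal1, Pop1, Smad7 and Srrm2, and those after siCdc73 in Aldh9a1, Cdk1, Dmxl1, Elk3, Pop1, Smad7, Surf2, Utp18 and Zfp513. Since both comparisons use the same siCtrl libraries, a gene that appears in both lists is not independent support.

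Dmxl1, Utp18 and Zfp513 were among the sites that rose after siCdc73, and Utp18 was chosen after its values were seen. Dmxl1, a WD-repeat protein linked to the vacuolar proton pump, had 0 reads at its exon 8 site among 880 in siCtrl, 6 of 134 and 5 of 401 in siPaf1, 33 of 178 and 42 of 957 in siCdc73 and 0 of 428 in siSki8. It was at least 6.03-fold higher in siPaf1 and 19.4-fold higher in siCdc73 (adjusted p = 0.0215 and 0.000314, blocked edgeR). Utp18, a component of the small-subunit processome that acts in ribosome assembly, had 0 of 524 reads at its site in siCtrl, 2 of 251 and 10 of 439 in siPaf1, 12 of 114 and 28 of 744 in siCdc73 and 3 of 520 in siSki8, and was at least 8.14-fold higher in siCdc73 (adjusted p = 0.00634). Zfp513, a zinc finger protein, lay at the last base of exon 3 and took 4 of 445 and 1 of 1667 reads in siCtrl, 37 of 231 and 32 of 2512 in siCdc73 and 8 of 424 and 3 of 2547 in siPaf1 (log2 4.33, SE 0.69, adjusted p = 0.000366 after siCdc73). It was the 1 boundary site that rose.

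Few sites fell. Rhot2, a GTPase of the mitochondrial outer membrane, took 40.9% and 62.9% of its reads at the exon 1 site in siCtrl, 8.98% and 28.1% in siPaf1, 14.4% and 22.6% in siCdc73 and 42.5% in siSki8, with log2 changes of -2.44 (SE 0.59, adjusted p = 0.0134) and -2.29 (SE 0.58, adjusted p = 0.0174) in the blocked edgeR fit. The siCdc73 call was lost whichever siCtrl or siCdc73 library was left out. The siPaf1 call was lost in most of the fits that left out a siCtrl or siPaf1 library. This site also lies within the annotated gene Wdr90 on the same strand, so its reads cannot be assigned to Rhot2 with certainty. Mkks, a chaperonin-like protein of Bardet-Biedl syndrome, took 11.4% and 7.62% at a site in the 5' UTR of exon 3 in siCtrl, 4.06% and 0.800% in siPaf1, 0 of 56 and 1 of 138 reads in siCdc73 and 4.47% in siSki8 (adjusted p = 0.0428 and 0.0413, blocked edgeR). The whole gene was lower in siCdc73, with 56 and 138 reads against 271 and 446 in siCtrl, and its RNA-seq counts fell there as well (log2 change -1.67, SE 0.30, adjusted p = 4.95e-05). Both Mkks calls were lost in most of the fits that left out a siCtrl or knockdown library. Wasl, which encodes N-WASP and promotes actin branching, took 84.8% and 44.2% at its exon 4 boundary site in siCtrl, 25.7% and 3.07% in siPaf1, 34.0% and 21.2% in siCdc73 and 48.2% in siSki8. It was called after siPaf1 (log2 -4.25, SE 0.76, adjusted p = 0.00123) and not after siCdc73 (-2.35, SE 0.75, adjusted p = 0.0638). Its site reads were 84 and 42 in siCtrl and 43 and 13 in siPaf1, while the other reads went from 15 and 53 to 124 and 411. This is the boundary site printed above with a run of A at the start of the next exon. Leng1, whose site lies at an annotated end of the overlapping gene Tmc4, went from 20.1% and 18.1% in siCtrl to 5.65% and 2.79% in siPaf1 with adjusted p = 0.0511 in the blocked edgeR fit. Plcb3 was at 2.44% and 5.34% in siCtrl and 1.30% and 1.04% in siPaf1 (adjusted p = 0.0691).

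Plekhn1 and Smpdl3b, named after their values were seen, fell to 0 after siPaf1. Plekhn1 had 8 of 21 and 13 of 32 reads at its exon 14 site in siCtrl and 0 of 54 and 0 of 115 in siPaf1, at least 22.3-fold lower (adjusted p = 0.00521, blocked edgeR). Smpdl3b, related to sphingomyelin phosphodiesterases, had 23 of 373 and 15 of 871 in siCtrl and 0 of 170 and 0 of 316 in siPaf1, at least 4.95-fold lower (adjusted p = 0.0172). Each of these calls was lost in some of the fits that left out a siCtrl or siPaf1 library. After siCdc73 both sites held reads, 4 of 12 and 5 of 46 for Plekhn1 and 7 of 114 and 10 of 264 for Smpdl3b.

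The site called in an annotated last exon was that of Smg6, the endonuclease of nonsense-mediated decay. It took 97.3% and 100% of the reads in siCtrl, 96.3% and 91.9% in siPaf1, 67.0% and 48.0% in siCdc73 and 95% in siSki8. The site's own reads were 146 and 96 in siCtrl and 67 and 134 in siCdc73, and other reads of Smg6 were 4 and 0 in siCtrl and 33 and 145 in siCdc73. Usage fell by 5.42 on the log2 scale after siCdc73 (SE 0.97, adjusted p = 0.00115, blocked edgeR), with the difference carried by reads elsewhere in the gene. Mycbp2, another last-exon site, was at 95.3% and 100% in siCtrl and at 83.3% and 93.1% in siCdc73 (adjusted p = 0.106).

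Taken directly against each other in the blocked edgeR fit, siPaf1 and siCdc73 differed at 6 of the 141 sites, where 0.851% of all sense sites were higher and 0.892% lower in siPaf1 (1.74% either way). Golga1 and Marcks are named here because they were called. Higher in siPaf1 were Golga1 (log2 difference 3.6, SE 0.90, adjusted p = 0.0397) and Smg6 (3.58, SE 0.82, adjusted p = 0.0244). Lower in siPaf1 were Slc30a4 (-3.52, SE 0.50, adjusted p = 0.000836), Zfp513 (-3.33, SE 0.61, adjusted p = 0.00507), Smpdl3b (adjusted p = 0.0244) and Marcks (-2.55, SE 0.62, adjusted p = 0.0355). Golga1, a golgin, took 3.72% and 0.262% in siCtrl, 12.6% and 11.5% in siPaf1, 1.35% and 0.820% in siCdc73. Marcks, a substrate of protein kinase C, took 4.90% and 8.75% in siCtrl, 3.21% and 6.50% in siPaf1 and 25.4% and 21.6% in siCdc73 at a site in the 5' UTR of exon 1. Without the block this contrast called 0 sites, with 3 higher and 4 lower at an unadjusted p under 0.05 (2.17% and 2.05% of all sense sites). Taf5 and Wasl, which passed in the siPaf1 comparison but not in that of siCdc73, did not pass this test of the difference (adjusted p = 0.114 and 0.247).

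For siSki8, with 1 library, the sites with the smallest unadjusted p among those with a mean of at least 10 reads were Cdk1, Dbf4, Deb1, Fzd3 and Rps6kc1 among those higher and Deb1, Plcb3, Sfswap, Strn3 and Wdr33 among those lower, and none had an adjusted p under 0.756. The 2 sites of Deb1 are the only sense sites of that gene and mirror each other, at 1.94% and 1.75% against 98.1% and 98.2% in siCtrl, and 4.94% against 95.1% in siSki8. Fzd3, a Wnt receptor, took 27.3% and 4.90% at its site in siCtrl and 33.3% in siSki8, above both siCtrl libraries, which lay far apart. Rps6kc1 was at 92.2% and 85% in siCtrl and 97.5% in siSki8, and Sfswap, a splicing regulator, at 0 of 202 and 9 of 423 reads in siCtrl and 0 of 416 in siSki8.

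The host genes were grouped by lists chosen by function. Of 15777 genes with a sense site, 779 (4.94%) held an internal exon site. Of the 23 genes of cleavage and polyadenylation, all in the table, 5 did, with 6 sites, all in annotated internal exons, of which 3 were tested, in Rbbp6, Pcf11 and Wdr33. Only Rbbp6 was called. Pcf11, a subunit of cleavage factor II, took 6.06% and 6.15% of reads at its exon 8 site in siCtrl, 15.5% and 25.3% in siPaf1, 11.7% and 19% in siCdc73 and 11.5% in siSki8. Each knockdown library was above both siCtrl libraries, and the log2 changes of 1.97 (SE 0.71) and 1.48 (SE 0.73) had adjusted p = 0.103 and 0.284 in the blocked edgeR fit. RNA-seq counts of Pcf11 fell in both (-1.13, SE 0.24, adjusted p = 0.000597, and -0.79, SE 0.24, adjusted p = 0.0094). Wdr33, a subunit that contacts the hexamer, took 2.65% and 3.20% in siCtrl, 3.54% and 3.21% in siPaf1, 7.67% and 6.75% in siCdc73 and 1.01% in siSki8. The adjusted p was 0.891 after siPaf1 and 0.127 after siCdc73 in the blocked edgeR fit. Of the 6 Paf1C genes 1 held a site, which had too few reads to test. In the other lists 2 to 8 host genes were found for extracellular matrix (5 of 56 listed genes in the table), translation and ribosome (5 of 60), cytoskeleton and adhesion (4 of 49), splicing factors (3 of 51), mitosis (3 of 49), RNA-binding proteins (2 of 51) and chromatin and transcription (8 of 67), 1 of 33 for contractile muscle genes, and none (0 of 14) for the genes the study names. Of these lists extracellular matrix, mitosis and splicing factors had 1 tested site each, in Col5a2, Cdk1 and Srrm2. All of them rose after siPaf1, where 22.4% of the 85 tested sites in annotated internal exons and 4.12% of all sense sites rose. The Col5a2 and Srrm2 sites had a siCtrl mean under 5 reads and passed the read filter only through the other groups. With 1 site per list, these values do not describe the lists. Col5a2 and Cdk1 rose after siCdc73 as well, and Srrm2, which had no siCtrl read and was called in 1 of the 4 fits that left out a siPaf1 or siCtrl library, did not.

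In RNA-seq more of the host genes with a tested site fell than rose after siPaf1, and over all host genes the counts up and down were closer. Among 344 host genes tested, 0 were called without the batch block in any knockdown by edgeR, with 65, 86 and 18 at an unadjusted p under 0.05 for siPaf1, siCdc73 and siSki8, and DESeq2 called 31, 42 and 0. With the block 51 rose and 60 fell after siPaf1, where 16.3% of all 6521 genes rose and 16.2% fell, and these were 14.8% and 17.4% of the host genes. After siCdc73 78 rose and 76 fell (22.7% and 22.1%, with 19.4% and 20.5% of all genes), and after siSki8 14 rose and 7 fell (4.07% and 2.03%, with 2.93% and 2.5% of all). The median log2 change of host genes was -0.04, 0.03 and 0.02. Of the 57 host genes with a tested site, 2 rose and 14 fell after siPaf1 (3.51% and 24.6%), with a median of -0.22. After siCdc73 10 rose and 9 fell (17.5% and 15.8%), with a median of -0.05, and after siSki8 4 rose and 0 fell (7.02% and 0.0%), with a median of 0.11. No test compared these 57 genes with the others. RNA-seq counts of coding genes cover the coding region, so transcripts that end at an internal exon add reads up to that exon.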

How the data were processed

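3'READS and RNA-seq libraries of C2C12 cells were analysed, 7 of each, grouped by GEO's labels. The 3'READS table holds counts of PASS reads per pA site, which the authors deposited without normalization after alignment to mm9 by bowtie2 and selection of unique alignments with 2 or more non-genomic Ts. For RNA-seq the authors deposited counts per RefSeq transcript and RPKM values, which were not used. The bowtie2 version is not given in the sources used here. Every per-sample column matched a sample, with 0 left unmatched.

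The members and gene lists were chosen with earlier results of these data known. Sites were placed in GENCODE M1 exons of the same build. Of the 779 host genes 770 matched it by symbol. A site entered the test when it averaged 5 reads or more across libraries, with as many other sense reads of its gene. Usage was tested in R 4.3.3 with edgeR 4.0.16 by an isoform by knockdown interaction with 1 coefficient per library and Benjamini-Hochberg adjustment over 19277 sites, and the call threshold was an adjusted p of 0.05. Each fit held all 7 libraries. The unreplicated siSki8 library was judged by the spread of the other groups. RNA-seq genes, 1 transcript each, were tested by edgeR with TMM. DESeq2 1.42.0 was an alternative. Single-library ratios had 0.5 added. A group with 0 reads was set to 3 reads over the group for folds, and Wilson intervals are at 95%. Intervals and limits cover counting error only. Tables, sequences and figures used Python 3.11.15, pandas 2.3.3, scipy 1.17.1, pysam 0.24.0 and matplotlib 3.10.9.

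The batch numbers pair the libraries per the labels. The batch difference correlated across the 141 member sites at 0.363, 0.361 and 0.25 between groups. The fit without the batch was the primary one, as the study's methods state no batch term. On simulated data with a batch difference for siPaf1 against siCtrl over 19277 sites, the block raised the sites recovered from 0 to 100 of 200 changed 4-fold, at 2 wrong calls, and to 2 of 200 changed 2-fold. The simulation gave every group the same batch difference and a spread like that of the blocked fit (common coefficient of variation 0.277), which favours the block. Without a simulated batch difference the unblocked fit recovered 81 of 200 sites changed 4-fold, at 2 wrong calls. An absence of calls in the unblocked fit was thus uninformative under the first setting. How far this holds for these libraries was not tested.

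Sites were named by 4 rules, namely the 8 with the highest mean CPM, the 8 with the highest siCtrl share among sites with a mean of at least 20 reads and 20 other reads, for each knockdown and direction at most 5 with the smallest unadjusted p in the blocked fit among sites with a mean of at least 10 reads changed alike in every batch, and sites with a mean of at least 10 reads in genes of the cleavage and polyadenylation, Paf1C and study lists. The division by annotated exon or by siCtrl reads, the boundary sites and the siPaf1 against siCdc73 contrast were added after seeing the data. ChIP samples were not used here.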

Additional observations from a re-analysis of the deposited data

How the results depend on the processing

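The count of changed internal exon sites depended on the batch term and the test. With the replicate block it went from 0 to 25 for siPaf1 and 21 for siCdc73, and to 6 for siPaf1 against siCdc73, and it stayed at 0 for siSki8. Restricted to annotated internal exons the blocked counts were 23 and 18. DESeq2 called 10 and 8, Fisher's exact test on pooled reads 77, 64 and 39 for siSki8, no filter on low counts 1 and 3, and the filter on 5% of the gene 1 for siCdc73. Leaving out 1 library gave 0 throughout without the block, and with it 8 to 27 calls for siPaf1, 9 to 27 for siCdc73 and 0 for siSki8. For siPaf1 the blocked counts were 19 without siCtrl replicate 1, 8 without siCtrl replicate 2, 27 without siPaf1 replicate 1 and 14 without siPaf1 replicate 2. For siCdc73 they were 16, 9, 12 and 11 without siCtrl replicates 1 and 2 and siCdc73 replicates 1 and 2. Without siCtrl replicate 2, 8 of the 25 and 9 of the 21 calls remained. Over the 4 fits that each left out a siCtrl or knockdown library, 7 siPaf1 calls (Abcc5, Cdk1, Nek2, Rbbp6, Slc30a4, Taf5, Wasl) and 9 siCdc73 calls (Col5a2, Dbf4, Dmxl1, Rbbp6, Runx1, Slc30a4, Smg6, Terf2, Zfp513) held in each. Of the other calls, 2 for siPaf1 (Rmnd5a, Smad7) and 6 for siCdc73 (Abcc5, Aldh9a1, Cdk1, Rhot2, Rmnd5a, Smad7) held in none, and the rest were lost in at least 1. In those 4 fits every called site kept its direction.

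The median usage change moved as follows for siPaf1, siCdc73 and siSki8. It was 0.37, 0.55 and 0.13 without the block. With the replicate block it was 0.46, 0.54 and 0.48, or 0.43, 0.42 and 0.13 with sites without a read in a group set to their bound. It was 0.94 and 1.36 against the 3'-most exon only, 0.10 for siPaf1 and -0.19 for siSki8 at a mean of at least 20 reads, 0.35 for siCdc73 at 5% of the gene, and 1.02 and 1.13 for annotated internal exons, or 1.08, 1.12 and 0.48 with the block. Leaving out 1 library gave 0.03 to 0.59, 0.29 to 0.83 and -0.08 to 0.41 without the block, and 0.00 to 0.58, 0.33 to 0.64 and 0.32 to 0.46 with it (0.38 for siSki8 without siCtrl replicate 2).

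The share of reads differed from siCtrl by 0.0568, 0.0897 and 0.0335 percentage points. Leaving out 1 library gave 0.0496 to 0.064, 0.0426 to 0.137 and 0.0279 to 0.0392. For siSki8 it turned to -0.00427 over annotated internal exons, -0.000429 without Pofut2 and -0.0031 without boundary sites. Host genes changed in RNA-seq numbered 111, 154 and 21 with the replicate block, 15 and 21 without a filter, 31 and 42 by DESeq2, and 0 to 5 for siPaf1 when 1 library was left out. Among the named sites followed through the alternatives, the direction of a change turned for Wdr33 after siPaf1 (-0.01 in the block without siCtrl replicate 1) and Rbbp6 after siSki8 (0.69 without siCtrl replicate 2, and 0.19 without either siPaf1 library), and none of these was a call. Over all 141 sites the unblocked and blocked fits differed in direction at 6 sites for siPaf1, 5 for siCdc73 and 14 for siSki8, of which 0 were called. The cause was not tested.

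Depth limits most sites, since 801 of the 967 had a mean under 5 reads per library and were not tested. PASS reads carry no molecular identifiers here, so that duplicates cannot be told from molecules. Usage is a ratio, and a call can come from reads elsewhere in the gene, as the counts given for Cdk1 and Smg6 show. For Wasl the site's own reads fell and the other reads rose. siSki8 has no replicate.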
